A study of Mus musculus with 12 samples.

Results

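Diethyl maleate (DEM), a compound that depletes glutathione by reacting with it, was compared with vehicle in mouse embryonic fibroblasts that expressed T-N2G, a tethered heterodimer of Nrf2 and MafG. The comparison takes 6 of the 12 libraries of the series, chosen by their titles: 3 of T-N2G cells given 100 µM DEM for 12 h and 3 of T-N2G cells given vehicle for 12 h, paired by the replicate number in the titles. All cells of the series are immortalized fibroblasts with the genotype MafF-/-::MafG-/-::MafK-/-, so the vehicle group lacks the 3 small Maf genes as well. The other 6 libraries are of mock cells with the same deletions and no T-N2G, also with DEM or vehicle for 12 h, 3 libraries each. Polyadenylated RNA was sequenced. The genotype label spells the construct T-NG2 and the titles T-N2G. The labels do not name the promoter of the construct, the vehicle, or whether the cells were a clone or a pool, and they leave unsaid if each replicate was a culture of its own, so p-values measure only the spread between these libraries.

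Nrf2, the product of Nfe2l2, is held at a low level by Keap1, which marks it for destruction. Electrophiles modify cysteines of Keap1, Nrf2 then builds up and pairs with a small Maf protein (MafF, MafG or MafK), and the pair binds antioxidant response elements near genes for glutathione synthesis, conjugation, NADPH supply, and heme and iron handling. Cells without small Maf proteins lack these partners, and in T-N2G the Nrf2 and MafG parts come as one tethered molecule.

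The 6 T-N2G libraries held between 18863560 and 21311856 fragments, with 14860 to 15141 of the 24318 genes of the table detected. Levels are in CPM, the fragments of a gene over the size of its library in megafragments, scaled between libraries by the trimmed mean of M-values. Of all genes, 12469 passed a filter on low counts and were tested in edgeR's quasi-likelihood model of the 12 libraries, to which the replicate number was added as a block. A log2 fold change is that of DEM over vehicle, with its standard error after ±, over n = 3 libraries per group. A gene was called, and is said to have risen or fallen, when its p, adjusted by Benjamini and Hochberg for the 12469 genes, was under 0.05. The adjusted p without the block is given where it lost a call, and counts of calls without the block stand in parentheses. Replicate 3 carries a separate series of library codes in the labels. The fibroblast markers summed to between 14712 and 19020 CPM in vehicle and between 11864 and 14824 in DEM. Of 8 leukocyte markers 4, among them Lyz2, had no fragment in the 6 libraries, and the 8 summed to between 1.49 and 2.65 CPM. Of 6 adipocyte markers 4 had no fragment, and the 6 summed to at most 0.562 CPM. The epithelial list, mostly Krt19, summed to between 79.3 and 140 CPM over the 6 libraries and the endothelial list, mostly Flt1, to between 98.1 and 203, with Epcam and Pecam1 at most 0.141 and 0.270 CPM. The muscle list, led by Ttn, reached at most 15.8 CPM and the neural list, led by Map2, at most 76.2.

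DEM changed the levels of many genes of T-N2G cells by small amounts and of few by large ones. Of 12469 genes, 2846 were called higher (22.8%) and 2769 lower (22.2%). Among the called genes 82.5% had changed by less than 1.5-fold, and the median log2 fold change of all tested genes was -0.0046. At least 2-fold higher were 99 called genes (0.794%) and at least 2-fold lower 231 (1.85%). Without the block, 1254 genes were called higher (10.1%) and 941 lower (7.55%), and these were called with the block too. Separation of the groups was common. The 3 DEM libraries lay above all 3 vehicle libraries for 2264 of the 12469 genes and below them for 1945, of which 1989 and 1625 were called. Mock cells had a like number of calls of any size, 2603 higher (20.9%) and 2736 lower (21.9%), but fewer of at least 2-fold. Those were 36 higher and 175 lower in mock cells (27 and 81 without the block), against 99 and 231 in T-N2G cells (80 and 138). Of the genes called higher in T-N2G cells 68.0% were called higher in mock cells, which is 74.4% of those of mock cells, and of the genes called lower 71.4% and 72.2%. In these bulk libraries fewer cells of a type and less RNA per cell cannot be told apart.

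**Figure D1:**
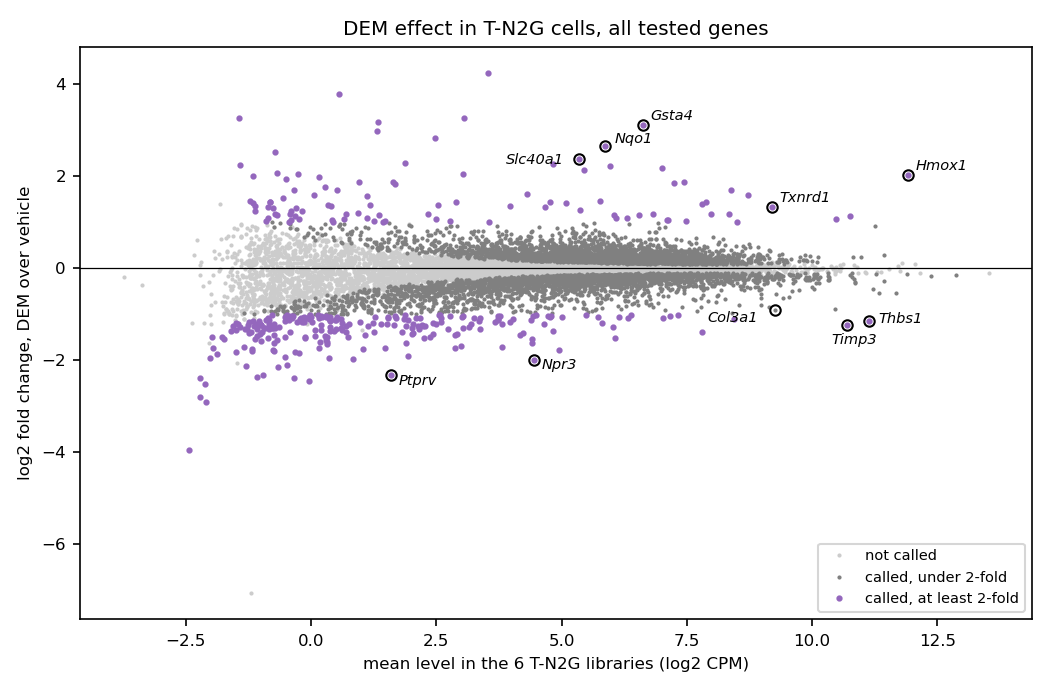
The log2 fold change of DEM over vehicle in T-N2G cells (vertical axis) is plotted against the mean level in the 6 T-N2G libraries in log2 CPM (horizontal axis), 1 point for each of the 12469 tested genes. Light points were not called, dark grey points were called with a change under 2-fold, and purple points were called at 2-fold or more, with Hmox1 at a log2 fold change of 2.03 and Thbs1 at -1.15 among the abundant genes.

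The promoters of 8 genes that rose are shown because they carry the core of an antioxidant response element within 250 bases before the start of the gene. The letters searched were TGACNNNGC on both strands, with N for any base, in RefSeq windows of 300 bases (GRCm38.p6) from 250 bases before to 50 after the start. This is another build than the mm9 of the authors, so no coordinates are given. Of the genes called higher in both fits, those are printed that belong to a list of Nrf2-related genes, have the match before the start, and have the smallest adjusted p. The motif stands in capitals, 5′ to 3′ on the strand of the gene, with up to 40 bases on each side. Gclm encodes a subunit of the first enzyme of glutathione synthesis, Abcc4 an efflux pump, Txnrd1 thioredoxin reductase, Procr the endothelial protein C receptor, G6pdx glucose-6-phosphate dehydrogenase, Sod1 a superoxide dismutase, Htatip2 an oxidoreductase and Prdx1 a peroxiredoxin.
Gclm: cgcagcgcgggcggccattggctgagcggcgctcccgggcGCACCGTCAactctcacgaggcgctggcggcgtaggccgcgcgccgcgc
Abcc4: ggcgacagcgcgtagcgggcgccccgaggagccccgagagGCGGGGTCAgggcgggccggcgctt
Txnrd1: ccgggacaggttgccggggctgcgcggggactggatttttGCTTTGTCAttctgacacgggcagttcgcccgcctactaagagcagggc
Procr: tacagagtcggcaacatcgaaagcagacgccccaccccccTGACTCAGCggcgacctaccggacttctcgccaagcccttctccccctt
G6pdx: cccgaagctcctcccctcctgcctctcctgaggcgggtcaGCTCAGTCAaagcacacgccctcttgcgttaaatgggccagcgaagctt
Sod1: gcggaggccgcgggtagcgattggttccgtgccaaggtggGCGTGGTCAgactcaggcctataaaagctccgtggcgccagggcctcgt
Htatip2: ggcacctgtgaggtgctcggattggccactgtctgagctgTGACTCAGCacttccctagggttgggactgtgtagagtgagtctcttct
Prdx1: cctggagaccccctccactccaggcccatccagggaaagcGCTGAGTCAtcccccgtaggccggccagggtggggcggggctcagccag
In Procr, Htatip2 and Prdx1 the capitals spell the full motif TGACTCAGC on one strand or the other, in the other 5 genes the middle bases differ. Shares are of genes with a promoter window, and a match in any window of a gene counted. The core was found in 13.991% of all 27025 such genes and in 17.122% of those tested. It was in 19.359% of those called higher and in 26.866% of those called higher by at least 2-fold (18 of 67). Among Nrf2-related genes called higher it was in 16 of 51 (31.373%), and among all tested Nrf2-related genes in 27 of 119 (22.689%). Among genes called lower by at least 2-fold it was in 13.072%. The full TGACTCAGC, searched after the first results were seen, was in 0.503% of all genes with a window. It was in 5 of 67 genes called higher by at least 2-fold (7.463%). Of 51 Nrf2-related genes called higher 6 held it (11.765%), namely Htatip2, Me1, Mt2, Pir, Prdx1 and Procr. It was in 3 of 153 genes called lower by at least 2-fold (1.961%) and in 7 of 119 tested Nrf2-related genes (5.882%). A match is a description of letters and not a measured binding site.

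Genes of the Nrf2 system were taken in 11 lists by role, with 169 genes in all, of which 141 were tested. The lists were chosen with earlier results of these data known, so their shares are a description and no test of an excess. Of the 141, 65 were called higher (46.1%, against 22.8% of all tested genes) and 24 lower (17.0%, against 22.2%). Without the block these were 53 and 12, against 10.1% and 7.55% of all tested genes. At least 2-fold higher were 32 of them and at least 2-fold lower 1, against 0.794% and 1.85% of all tested genes. Their median log2 fold change was 0.12. The counts of each list below stand beside the same shares of all tested genes, 22.8% higher and 22.2% lower (10.1% and 7.55% without the block).

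Among 10 tested regulators 2 rose and 2 fell (1 and 1 without the block), near the shares of all tested genes. Neither Nfe2l2 nor Mafg, which are parts of the construct, was called higher. Nfe2l2 stood at 612, 485 and 701 CPM in vehicle replicates 1, 2 and 3 and at 573, 454 and 641 CPM in DEM, with a log2 fold change of -0.11 ± 0.10 (adjusted p = 0.386). Mafg stood at 143, 106 and 161 CPM in vehicle and at 136, 95.7 and 132 CPM in DEM. The groups overlapped for both genes, and each DEM library lay below the vehicle library of its number. Mafg fell 1.13-fold (log2 -0.17 ± 0.05, adjusted p = 0.00816), a call lost with DESeq2 (adjusted p = 0.402), without the block (adjusted p = 0.442), without T-N2G vehicle replicate 3 (adjusted p = 0.118), without T-N2G DEM replicate 3 (adjusted p = 0.0774) and without replicate 3 altogether (adjusted p = 0.0956). In the T-N2G libraries the fragments do not separate RNA of the construct from that of the cells' own genes. The comparison of DEM with vehicle therefore checks neither the deletion nor the construct. Keap1, the repressor of Nrf2, rose from 66.0, 75.7 and 69.2 CPM to 99.1, 102 and 96.8 CPM (1.41-fold, adjusted p = 1.73e-07). Bach2, a competitor of Nrf2 for small Maf partners, fell from 75.1, 58.4 and 57.3 CPM to 36.2, 34.4 and 29.5 CPM (1.90-fold, adjusted p = 3.93e-09). DEM and vehicle libraries did not overlap for Keap1 or Bach2. Bach1, its relative and the repressor of Hmox1, was not called (log2 0.05 ± 0.05, adjusted p = 0.423), nor were Maff and Mafk, at most 5.02 and 2.58 CPM in a library (adjusted p = 0.299 and 0.0721).

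Genes of glutathione synthesis and recycling rose together in part. Of 12 listed genes 11 were tested, of which 7 rose and 1 fell (6 and 0 without the block), with a median log2 fold change of 0.48. The subunits of glutamate-cysteine ligase, which makes the first bond of glutathione, rose alike. Gclc went from 69.4, 54.7 and 71.7 CPM in vehicle to 230, 213 and 266 CPM in DEM, 3.62-fold (log2 1.86 ± 0.05, adjusted p = 7.42e-14). Gclm, whose promoter is shown above, went from 72.9, 65.1 and 83.2 CPM to 274, 224 and 319 CPM, 3.68-fold (log2 1.88 ± 0.07, adjusted p = 3.04e-12). The lowest DEM library of either gene lay above the highest vehicle library. Slc7a11, the cystine importer that supplies cysteine, had the largest rise of the list, from 16.1, 14.4 and 17.9 CPM to 69.2, 54.1 and 91.6 CPM (4.39-fold, adjusted p = 3.29e-10). Slc3a2, the partner chain of that importer, rose 1.47-fold (adjusted p = 3.05e-07), and Gsr, which returns oxidized glutathione to its reduced form, 2.22-fold (adjusted p = 1.45e-09). Gss, the enzyme of the last step of synthesis, rose 1.40-fold (adjusted p = 5.63e-06). Chac1, which breaks glutathione down, rose 1.35-fold (adjusted p = 0.00183), a call lost without the block (adjusted p = 0.0505).

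Glutathione S-transferases, which join glutathione to electrophiles, divided into a few genes with large rises and many without a call. Of 24 listed genes 17 were tested, of which 6 rose and 3 fell (6 and 0 without the block), and the median log2 fold change was 0.05. Gsta4, known for the conjugation of lipid aldehydes, went from 15.1, 18.4 and 28.5 CPM to 148, 167 and 216 CPM. This rise of 8.68-fold (log2 3.12 ± 0.09, adjusted p = 7.42e-14) was the largest among the Nrf2-related genes. Replicate 3 was the highest for Gsta4 in both treatments. Gstm1 went from 17.4, 23.8 and 24.3 CPM to 80.6, 120 and 108 CPM (4.70-fold, adjusted p = 2.52e-11), again without overlap of the groups. The microsomal transferase gene Mgst1 rose 4.88-fold from a low level, 0.688 to 1.94 CPM in vehicle and 4.90 to 6.97 in DEM (adjusted p = 1.5e-06), and Gstp1 1.38-fold (adjusted p = 1.83e-05). Gsta1 and Gsta3 also rose, each at most 1.62 CPM in a library, and near-identical copies in this family make their values uncertain. Gstm5, Gstt1 and Gstz1 were the genes that fell, with log2 fold changes of -0.33, -1.03 and -0.22 and adjusted p without the block of 0.0999, 0.313 and 0.159. Leaving out libraries also lost these calls. That of Gstm5 was lost without replicate 2 or 3 (adjusted p = 0.0526 and 0.0586) and that of Gstt1 without replicate 3 (adjusted p = 0.0923). That of Gstz1 was lost without any 1 of the replicates, and without T-N2G vehicle replicate 1 or 2 or T-N2G DEM replicate 1 or 3 (adjusted p from 0.0509 to 0.252), and with DESeq2 (adjusted p = 0.0960). Among the glutathione peroxidases Gpx1, which uses glutathione to reduce hydrogen peroxide, fell from 137, 162 and 134 CPM to 107, 117 and 97.6 CPM (1.35-fold, adjusted p = 1.06e-06). Of the 4 tested peroxidases 2 fell and none rose (1 and 0 without the block).

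In the thioredoxin system, which reduces protein disulfides and peroxides, 7 of 15 tested genes rose and 4 fell (6 and 2 without the block), with a median log2 fold change of 0.09. Srxn1, sulfiredoxin, which restores overoxidized peroxiredoxins, rose from 44.7, 40.9 and 52.5 CPM to 207, 173 and 248 CPM (4.53-fold, log2 2.18 ± 0.08, adjusted p = 3.34e-12). Txnrd1 rose from 376, 262 and 360 CPM to 952, 670 and 904 CPM (2.53-fold, adjusted p = 4.06e-10), with replicate 2 the lowest in both treatments. Prdx6 rose 2.63-fold (adjusted p = 1.86e-08), from 142, 93.3 and 136 CPM to 341, 248 and 385 CPM. Prdx1 and Txn1, a cytosolic peroxiredoxin and thioredoxin itself, rose 1.48- and 1.20-fold (adjusted p = 4.39e-07 and 0.000355). Txnip, which binds and inhibits thioredoxin, fell from 94.7, 119 and 115 CPM to 53.7, 73.9 and 68.4 CPM (1.68-fold, adjusted p = 7.5e-10). The mitochondrial genes went in both directions, with Txn2 1.38-fold higher (adjusted p = 1.84e-07), Prdx5 1.18-fold lower (adjusted p = 0.000862) and Txnrd2 not called (adjusted p = 0.122).

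NADPH is the reducing agent of both systems. Of 15 tested genes of its supply and of the pentose phosphate pathway 7 rose and 2 fell (5 and 0 without the block), and the median was -0.01. Pgd, the second dehydrogenase of the pentose phosphate pathway, rose from 156, 129 and 183 CPM to 498, 440 and 582 CPM (3.26-fold, log2 1.70 ± 0.06, adjusted p = 5.13e-12). The first dehydrogenase, G6pdx, rose from 85.1, 76.5 and 97.8 CPM to 146, 127 and 179 CPM (1.74-fold, adjusted p = 6.18e-08). DEM and vehicle libraries were separate for both. In the later, non-oxidative steps Taldo1 rose 1.56-fold and Tkt 1.22-fold (adjusted p = 2.1e-06 and 2.95e-05). Malic enzyme Me1, another source of NADPH in the cytosol, rose 2.06-fold (adjusted p = 8.5e-09). The isomerase genes did not rise: Rpe fell 1.18-fold (adjusted p = 0.00189, or 0.161 without the block) and Rpia had a log2 fold change of -0.18 ± 0.07 (adjusted p = 0.0525).

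Genes that detoxify quinones, carbonyls, aldehydes and epoxides were mixed. Of 31 listed genes 23 were tested, of which 8 rose and 5 fell (5 and 4 without the block), with a median log2 fold change of 0.016. With the block, the share that fell was near the 22.2% of all tested genes. Nqo1, the quinone reductase that serves as a standard reporter of Nrf2, rose from 13.3, 14.2 and 20.2 CPM to 87.2, 103 and 111 CPM. That is 6.35-fold (log2 2.67 ± 0.12, adjusted p = 3.08e-11), and the DEM libraries lay far above the vehicle libraries. Ptgr1, a reductase of unsaturated carbonyls, rose 1.98-fold (adjusted p = 1.64e-07) and the carbonyl reductase gene Cbr3 1.49-fold (adjusted p = 0.000133). Its neighbour in function Cbr1 was not called (log2 -0.03 ± 0.06, adjusted p = 0.725). The aldo-keto reductase genes Akr1b8 and Akr1b10 fell, 1.68- and 1.77-fold (adjusted p = 4.83e-05 and 0.000983), as did Ugdh, which makes UDP-glucuronic acid (1.26-fold, adjusted p = 1.33e-05), and the carboxylesterase gene Ces2g (1.89-fold, adjusted p = 0.00237).

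The list of heme breakdown, heme and iron transport and iron storage had the highest median of the 32 lists, a log2 fold change of 0.68. Of 19 listed genes 18 were tested, of which 12 rose and none fell, with and without the block. Hmox1, heme oxygenase, opens the heme ring and frees its iron. It stood at 1437, 1207 and 1977 CPM in vehicle and at 5688, 6021 and 6929 CPM in DEM, 4.10-fold higher (log2 2.03 ± 0.10, adjusted p = 9.58e-11). The highest vehicle library, replicate 3, lay well below the lowest DEM library. By the authors' FPKM, fragments corrected for transcript length and library size, which allow levels to be compared between genes, Hmox1 ranked 74, 82 and 46 among all genes in the vehicle libraries and 6, 4 and 4 in the DEM libraries. Blvrb, a biliverdin reductase, rose 2.66-fold (adjusted p = 8.5e-09). The ferritin genes, whose proteins store the iron, rose as well: Fth1 from 837, 857 and 1074 CPM to 1741, 1933 and 2109 CPM (2.09-fold, adjusted p = 6.48e-10), and Ftl1 from 1600, 1559 and 1890 CPM to 2946, 3277 and 3341 CPM (1.90-fold, adjusted p = 2.08e-10). Both have pseudogenes, which makes their values uncertain. Slc40a1, ferroportin, which exports iron from the cell, rose from 10.3, 13.8 and 14.7 CPM to 47.1, 89.8 and 67.1 CPM (5.20-fold, log2 2.38 ± 0.10, adjusted p = 3.02e-11). Replicate 2 was the highest of the DEM libraries, and no DEM library came near the vehicle range. Slc48a1, which moves heme out of the lysosome, rose 3.01-fold (adjusted p = 3.04e-12). The heme exporter gene Mfsd7b (also Flvcr1) rose 1.34-fold (adjusted p = 6.67e-05), the porphyrin transporter gene Abcb6 1.77-fold (adjusted p = 2.21e-07) and Fech, the last enzyme of heme synthesis, 1.45-fold (adjusted p = 2.15e-08). Pir, an iron-binding nuclear protein, rose from 1.87, 0.948 and 1.19 CPM to 4.81, 4.92 and 4.97 CPM (3.68-fold, adjusted p = 2.41e-06).

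**Figure D2:**
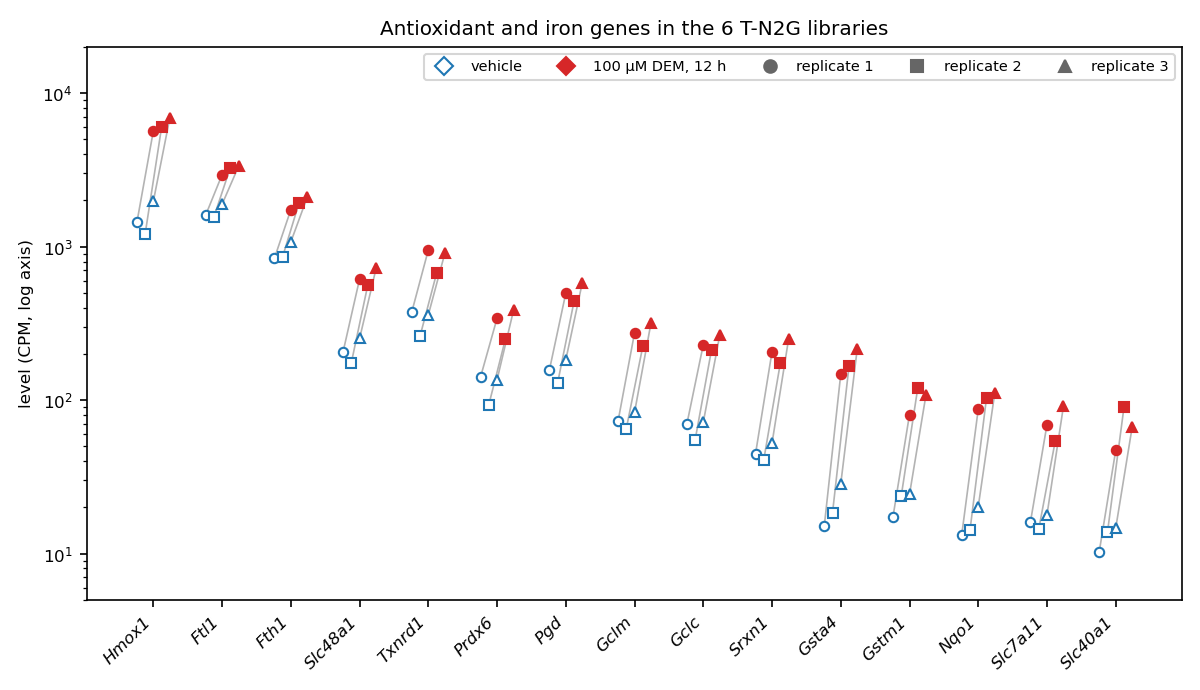
Levels in CPM (vertical axis, log scale) of 15 antioxidant and iron genes (horizontal axis) in the 6 T-N2G libraries. Open blue symbols are vehicle and filled red symbols 100 µM DEM for 12 h, the shape gives the replicate, and lines join libraries of the same number. Each DEM library lies above each vehicle library of its gene, as for Hmox1 with at most 1977 CPM in vehicle and at least 5688 in DEM. Such separation upward was found for 2264 of the 12469 tested genes.

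Of 6 tested ABC efflux transporters 3 rose and 1 fell (2 and 1 without the block). Abcc4 rose from 28.9, 26.8 and 30.9 CPM to 79.3, 71.6 and 88.6 CPM (2.76-fold, adjusted p = 3.08e-11) and Abcc1, an exporter of glutathione conjugates, from 169, 127 and 170 CPM to 362, 297 and 399 CPM (2.27-fold, adjusted p = 1.39e-10). The drug efflux gene Abcg2 fell 1.33-fold (adjusted p = 1.91e-05). Both pumps of the Abcc family were separate between treatments in the 6 libraries. Among superoxide dismutases and catalase, 2 of 4 tested genes rose and 1 fell. Catalase, Cat, rose from 75.1, 79.0 and 89.5 CPM to 152, 151 and 183 CPM (1.99-fold, adjusted p = 9.5e-11), Sod1 1.48-fold (adjusted p = 1.14e-07), and Ccs, the copper chaperone of Sod1, fell 1.20-fold (adjusted p = 0.00407, or 0.0717 without replicate 2).

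Other genes reported as Nrf2 targets held 11 rises and 3 falls among 18 tested, with a median log2 fold change of 0.39 (8 and 2 without the block). Sqstm1 (p62), an autophagy receptor that binds Keap1, rose from 208, 254 and 256 CPM to 441, 489 and 516 CPM (2.02-fold, adjusted p = 1.23e-11). Procr rose from 8.46, 6.87 and 13.8 CPM to 49.1, 30.0 and 62.5 CPM (4.82-fold, log2 2.27 ± 0.14, adjusted p = 1.16e-09), with replicate 2 the lowest in both treatments. Esd, an esterase that acts on glutathione adducts of formaldehyde, rose 2.74-fold (adjusted p = 1.03e-10), Htatip2 2.73-fold (adjusted p = 1.54e-07) and Osgin1, a growth inhibitor induced by oxidative stress, 2.98-fold (adjusted p = 4.42e-05). Procr and Htatip2 are genes with the full motif in the promoters shown above. The glycine transporter gene Slc6a9 rose 1.96-fold (adjusted p = 4.87e-07). The receptor gene Ahr fell 1.46-fold (adjusted p = 1.54e-05).

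The 12 largest rises by the naming rule were those of called genes in both fits whose higher group averaged 2 CPM or more and whose groups did not overlap. Besides Gsta4, Nqo1, Slc40a1, Mgst1, Procr, Gstm1 and Srxn1 they were the somatostatin receptor gene Sstr5 (9.07-fold), Gm3776, a transferase-like gene (7.95-fold), and the proliferin family genes Prl2c2 (9.61-fold), Prl2c3 and Prl2c4. Sstr5 rose from 0.246, 0.474 and 0.764 CPM to 3.67, 2.90 and 7.13 CPM (log2 3.18 ± 0.25, adjusted p = 1.45e-07). The vehicle libraries of Sstr5 were all under 1 CPM, and DEM replicate 3 was the highest. Sstr5, Gm3776 and Prl2c3 passed the filter on low counts only through the T-N2G DEM libraries. They could be tested and ranked only because they were high there. Prl2c2 rose from at most 2.11 CPM in vehicle to at least 9.45 CPM in DEM (adjusted p = 2.29e-10). Prl2c4 had no fragment in vehicle replicates 1 and 3, 0.569 CPM in vehicle replicate 2, and 2.68, 4.54 and 1.03 CPM in DEM. Its log2 fold change of 3.80 (adjusted p = 0.000292) became 8.55 without T-N2G vehicle replicate 2 and 4.41 without T-N2G DEM replicate 3. That of Prl2c3 was 2.84 (adjusted p = 1.9e-06), and 3.627 or 3.604 without T-N2G vehicle or DEM replicate 3. The proliferin genes, placental hormone genes also made by growing fibroblasts, and Gm3776 have near-identical copies, so the share of each is uncertain.

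The 12 largest falls by the same rule were of Ptprv, Npr3, Samd5, Cd80, Lgr5, Nov, Rprm, Igsf10, Sorbs2, Tnfaip3, Smarca1 and Inhbb, between 3.07- and 5.01-fold. That of Samd5 moved from a log2 fold change of -1.97 to -2.57 without T-N2G DEM replicate 1. Npr3, the clearance receptor of natriuretic peptides, fell from 36.9, 44.7 and 22.9 CPM to 7.78, 13.2 and 5.45 CPM (3.97-fold, log2 -1.99 ± 0.10, adjusted p = 1.61e-10). Nov (Ccn3), a matricellular protein, fell from 29.0, 60.7 and 54.0 CPM to 7.93, 18.4 and 16.1 CPM (3.40-fold, adjusted p = 3.64e-11), and Inhbb, a chain of activin and inhibin, from 30.2, 32.8 and 33.6 CPM to 10.8, 9.09 and 11.6 CPM (3.07-fold, adjusted p = 2.08e-10). For all 3 genes the vehicle libraries lay above the DEM libraries, which the rule required. Ptprv, a receptor phosphatase gene, had the largest fall, from 3.74, 8.82 and 2.53 CPM to 0.842, 1.59 and 0.540 CPM (5.01-fold, adjusted p = 4.76e-07). Lgr5, a receptor of R-spondins, fell 3.73-fold (adjusted p = 1.71e-05) and the co-stimulatory molecule gene Cd80 3.85-fold (adjusted p = 9.02e-05), both under 9 CPM. Every gene of this group was also called lower with DEM in mock cells (log2 fold changes from -1.91 for Ptprv to -0.92 for Sorbs2), and 3 of them lost that call without the block, Samd5 (adjusted p = 0.0614), Lgr5 (adjusted p = 0.165) and Igsf10 (adjusted p = 0.0656).

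Lists outside the Nrf2 system were described in the same way. Their counts stand beside 22.8% higher and 22.2% lower among all tested genes (10.1% and 7.55% without the block). Of 30 tested Atf4 targets of the amino acid response 14 rose and 6 fell (7 and 1 without the block), with a median log2 fold change of 0.18. Slc1a4, a transporter of neutral amino acids, rose from 66.8, 74.7 and 67.1 CPM to 153, 156 and 166 CPM (2.28-fold, log2 1.19 ± 0.05, adjusted p = 3.09e-11). Atf5, a transcription factor of stress responses, rose 1.96-fold (adjusted p = 9.91e-10), the pseudokinase gene Trib3 1.68-fold (adjusted p = 6.33e-05) and Slc38a2, another amino acid transporter, 1.43-fold (adjusted p = 2.48e-07). Vldlr fell 1.40-fold (adjusted p = 1.38e-05). Of 22 tested genes of protein folding in the endoplasmic reticulum 14 rose and none fell (4 and 0 without the block), with small changes and a median of 0.16. Calr, calreticulin, rose from 2463, 2430 and 2550 CPM to 3121, 2945 and 2988 CPM (1.22-fold, adjusted p = 0.000135), and Dnajc3 1.27-fold (adjusted p = 1.08e-05). Of 21 cytosolic heat shock genes 9 rose and none fell (5 and 0 without the block), with a median of 0.11. Hspa4l rose 1.71-fold (adjusted p = 4.76e-08), the co-chaperone gene Bag3 1.42-fold (adjusted p = 1.68e-06) and Hspa1b 1.39-fold (adjusted p = 0.00192), which is uncertain because of its copy Hspa1a. Of 20 cytosolic tRNA synthetase genes 1 rose and 5 fell (0 and 1 without the block), and the median was -0.02. Wars fell 1.23-fold and Nars rose 1.14-fold (adjusted p = 1.78e-05 and 0.00193, or 0.0952 and 0.212 without the block).

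Autophagy and lysosome genes mostly rose by small amounts. Of 37 tested 25 rose and 2 fell (11 and 0 without the block), with a median log2 fold change of 0.23. Tfe3, a transcription factor of lysosome genes, rose from 90.3, 91.3 and 97.3 CPM to 174, 163 and 187 CPM (1.88-fold, log2 0.91 ± 0.04, adjusted p = 9.5e-11). The autophagosome gene Gabarapl1 rose 1.61-fold (adjusted p = 1.31e-06), the kinase gene Ulk1, which starts autophagy, 1.39-fold (adjusted p = 4.76e-07), the lysosomal channel gene Mcoln1 1.41-fold (adjusted p = 1.48e-06) and the cholesterol exporter gene Npc1 1.37-fold (adjusted p = 1.94e-07). Atg3, of autophagosome formation, fell 1.12-fold (adjusted p = 0.00815, or 0.409 without the block, 0.0522 without replicate 1 and 0.0570 without replicate 3). Proteasome subunits had 5 rises and 10 falls among 36 (1 and 0 without the block), with a median of -0.03. Psme4, an activator of the proteasome, rose 1.36-fold (adjusted p = 3.47e-07), and the subunit gene Psmd6 fell 1.20-fold (adjusted p = 0.000214, or 0.0587 without the block). Of 12 metallothionein and zinc transport genes 8 rose and 1 fell (5 and 1 without the block). Mt1, which binds zinc and copper, rose from 97.1, 126 and 134 CPM to 217, 246 and 258 CPM (2.03-fold, adjusted p = 6.48e-10), Mt2 1.76-fold (adjusted p = 4.23e-06), and the zinc importer gene Slc39a10 fell 1.59-fold (adjusted p = 2.37e-07).

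Of 20 collagen genes 12 fell and 2 rose (4 and 2 without the block), with a median log2 fold change of -0.36. Col1a1, the main chain of type I collagen, fell from 3835, 4391 and 3456 CPM to 2710, 2935 and 2383 CPM (1.45-fold, adjusted p = 6.36e-08). Col3a1 fell from 740, 1029 and 609 CPM to 392, 590 and 304 CPM (1.87-fold, log2 -0.91 ± 0.05, adjusted p = 2.79e-10, or 0.0552 without the block). Replicate 2 was the highest for both in each treatment. Col4a1, of basement membranes, rose 1.21-fold (adjusted p = 3.58e-05). Of 24 tested genes of elastic fibres, lysyl oxidases and matricellular proteins 17 fell and none rose (7 and 0 without the block), with a median of -0.30. Fbn1, fibrillin, fell from 276, 328 and 245 CPM to 150, 179 and 144 CPM (1.79-fold, adjusted p = 2.5e-09). Thbs1, thrombospondin, fell from 3515, 2805 and 2942 CPM to 1594, 1355 and 1221 CPM (2.21-fold, adjusted p = 1.98e-08). Of 14 tested matrix proteases and their inhibitors 6 fell and 2 rose (4 and 0 without the block). Timp3, an inhibitor of matrix proteases, fell from 1888, 2134 and 2944 CPM to 791, 911 and 1260 CPM (2.36-fold, log2 -1.24 ± 0.05, adjusted p = 3.09e-11), and the protease genes Adamts5 and Adamts1 2.02- and 1.90-fold (adjusted p = 1.98e-08 and 3.81e-08). Mmp14, a membrane-bound matrix protease, rose 1.17-fold (adjusted p = 0.000121, or 0.146 without the block). For Thbs1, Timp3 and Fbn1 no DEM library reached the vehicle range. The fibroblast marker list, which shares Col1a1, Col1a2 and Col3a1 with these lists, had 9 falls and 1 rise among 11 tested genes (1 and 0 without the block). The shared genes enter the sums of both, so its summed level moved with the matrix lists in part by construction. Its part in their falls was not tested.

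Of 25 TGF-beta and YAP response genes 12 fell and 3 rose (5 and 0 without the block), with a median log2 fold change of -0.19. The growth factor gene Tgfb2 fell from 112, 107 and 109 CPM to 49.6, 55.8 and 50.3 CPM (2.11-fold, log2 -1.07 ± 0.06, adjusted p = 5.29e-10), and Tgfbi, a matrix protein induced by TGF-beta, 2.90-fold (adjusted p = 5.54e-09). Ctgf (Ccn2), a standard target of YAP, stood at 820, 308 and 1041 CPM in vehicle and at 456, 178 and 571 CPM in DEM. The groups overlapped, since replicate 2 was low in both, and each DEM library lay below the vehicle library of its number. The fall of 1.79-fold was called (log2 -0.84 ± 0.10, adjusted p = 5.73e-06) and lost its call without the block (adjusted p = 0.311). Tgfb1 rose 1.26-fold (adjusted p = 0.000326, or 0.359 without the block).

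Targets of p53, the tumour suppressor that halts damaged cells, had 15 falls and 3 rises among 24 tested genes (9 and 2 without the block), with a median log2 fold change of -0.37. The kinase gene Plk2 fell from 190, 164 and 173 CPM to 93.5, 73.8 and 83.1 CPM (2.11-fold, adjusted p = 1.5e-11), Btg2, which restrains growth, 2.04-fold (adjusted p = 3.17e-07) and Ccng1 1.60-fold (adjusted p = 5.96e-07). Rrm2b, a ribonucleotide reductase subunit, rose 1.53-fold (adjusted p = 2.84e-06). Immediate early genes, the first genes to answer growth signals, had 11 falls and 3 rises among 23 (5 and 2 without the block), and the median was -0.17. Klf4 fell from 95.1, 122 and 117 CPM to 51.8, 56.4 and 57.9 CPM (2.00-fold, adjusted p = 1.64e-09) and Jun 1.44-fold (adjusted p = 1.29e-05). Fosl1 rose from 10.9, 5.07 and 10.3 CPM to 30.5, 11.8 and 26.2 CPM (2.57-fold, adjusted p = 2.35e-05), with replicate 2 the lowest in both treatments. Of 14 ERK feedback genes 3 rose, near the 22.8% of all tested genes, and 1 fell (2 and 1 without the block). The gene that fell, Spry1, an inhibitor of growth factor signals, went from 50.6, 50.7 and 46.4 CPM to 29.3, 30.9 and 30.1 CPM (1.64-fold, adjusted p = 2.1e-07).

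Of 19 tested NF-kB targets and chemokines 11 fell and 2 rose (6 and 0 without the block), with a median log2 fold change of -0.42. Cxcl12, a chemokine of stromal cells, fell from 1744, 2212 and 1462 CPM to 905, 1356 and 732 CPM (1.83-fold, adjusted p = 4.12e-07), the adhesion molecule gene Vcam1 1.72-fold (adjusted p = 8.12e-09) and Tnfaip3, a brake on NF-kB, 3.20-fold (adjusted p = 3.86e-08). Csf1 rose 1.25-fold (adjusted p = 0.000145, or 0.175 without the block). Type I interferon response genes had 11 falls and no rise among 22 tested (2 and 0 without the block), and the lowest median of the 32 lists without the cell type markers, -0.44. Ifih1, a sensor of double-stranded RNA, fell from 6.83, 8.53 and 10.1 CPM to 5.05, 4.45 and 4.27 CPM (1.82-fold, adjusted p = 0.000194). These genes were low, and the list summed to between 204 and 309 CPM in the 6 libraries.

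Sterol synthesis genes had 13 falls and no rise among 23 tested, with a median log2 fold change of -0.16, and none of them was called without the block. Fdps, which makes farnesyl diphosphate, stood at 112, 161 and 113 CPM in vehicle and at 84.0, 146 and 87.4 CPM in DEM. Replicate 2 was the highest in both treatments, so the groups overlapped, and each DEM library lay below its vehicle partner (1.24-fold, adjusted p = 0.000115, or 0.485 without the block). Of 18 tested genes of fatty acid synthesis and lipid uptake 9 rose and 3 fell (3 and 2 without the block), with a median of 0.10. Cpt1a, which brings fatty acids into mitochondria, rose 1.72-fold (adjusted p = 2.87e-08) and the lipid carrier gene Fabp5 fell 1.45-fold (adjusted p = 6.67e-06). Of 23 genes of glucose import and glycolysis 6 rose and 4 fell (3 and 0 without the block), with a median of -0.03. With the block these counts were near the shares of all tested genes, 22.8% higher and 22.2% lower. Aldoa, aldolase, rose 1.32-fold (adjusted p = 8.71e-06). Ldhb, a lactate dehydrogenase chain, fell 1.29-fold (adjusted p = 0.000452, or 0.177 without the block). Of 35 DNA replication genes 13 fell and 4 rose (4 and 1 without the block), with a median of -0.07. Rrm1, a subunit of ribonucleotide reductase, fell 1.20-fold (adjusted p = 0.000201), and Pola2, of DNA polymerase alpha, rose 1.18-fold (adjusted p = 0.000347). Mitosis genes had 2 rises and 2 falls among 28 (1 and 0 without the block), a median of 0.0067, and Kif20a, a kinesin of cell division, rose 1.15-fold (adjusted p = 0.000393). Top2a, a topoisomerase, fell 1.10-fold (adjusted p = 0.00913, or 0.132 without the block, 0.0546 without replicate 1 and 0.0599 without replicate 2).

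**Figure D3:**
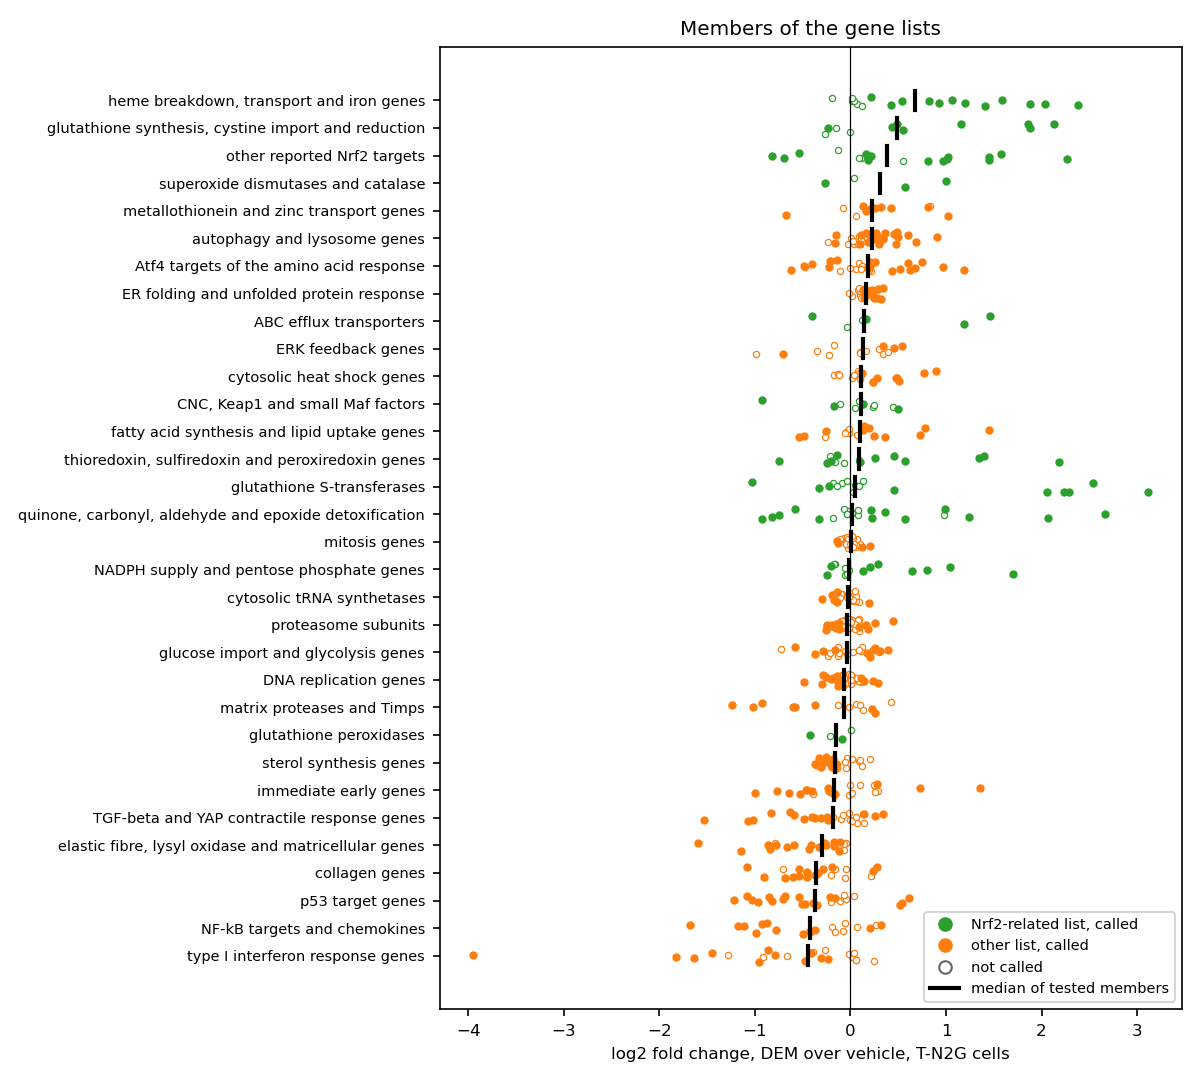
The log2 fold change of DEM over vehicle in T-N2G cells (horizontal axis) for each tested member of the 32 gene lists (vertical axis, ordered by median). Filled points were called and open points not, green marks Nrf2-related lists and orange the others, and black bars are list medians, from 0.68 for heme and iron genes at the top to -0.44 for type I interferon response genes at the bottom.

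The effect of DEM in T-N2G cells was set against that in mock cells by the test of the difference, in which the effects share no library. A difference may come from T-N2G or from another difference between the cell populations, and these cannot be told apart. The difference was called positive, a higher log2 fold change in T-N2G cells, for 227 of 12469 genes (1.82%) and negative for 122 (0.978%). Without the block the counts were 52 (0.417%) and 2 (0.016%), the latter Spry1 and Herpud1. Without replicate 1, 2 or 3 they were 127, 131 and 133 positive and 67, 56 and 62 negative, and without mock vehicle replicate 2 alone 132 and 79. Of the 141 tested Nrf2-related genes 43 had a positive difference and 3 a negative one (29 and 0 without the block). Their median log2 fold change was 0.12 in T-N2G and -0.079 in mock cells, while that of all tested genes was -0.011 in mock cells. Of the 227 genes 192 were called higher in T-N2G cells, and of the 122 genes 96 were called lower, against 22.8% and 22.2% of all tested genes. The difference contains the T-N2G effect itself, so these counts follow in part from how the genes were picked.

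The largest positive differences among genes called in both fits were those of Pir, Gsta4, Slc40a1, Gstm1, Nqo1, Srxn1, Pik3ap1 and Pgd. Pir stood at 0.368 ± 0.190 CPM (SD, n = 3) in mock vehicle and 0.125 ± 0.0618 in mock DEM, levels that rest on few fragments. Its fall in mock cells (2.91-fold, adjusted p = 0.0443, or 0.0792 without the block) enters its difference of 3.42 ± 0.63 (adjusted p = 0.00370). Gsta4 stood at 1.33 ± 0.757 CPM (SD, n = 3) in mock vehicle and 1.11 ± 0.273 in mock DEM, where its rise in T-N2G cells was 8.68-fold, and its difference was 3.39 ± 0.34 (adjusted p = 6.36e-06). Slc40a1 went the other way in mock cells, from 1.96 ± 1.21 to 0.990 ± 0.283 CPM (1.98-fold lower, adjusted p = 0.0112, or 0.209 without the block), with a difference of 3.36 ± 0.31 (adjusted p = 2.33e-06). Pgd and Abcb6 also fell in mock cells, 1.16- and 1.45-fold (adjusted p = 0.0200 and 0.00013), where the call of Pgd was lost without the block (adjusted p = 0.274), and their differences were 1.91 ± 0.09 and 1.36 ± 0.12 (adjusted p = 1.11e-09 and 8.51e-07). Gclm stood at 49.4 ± 1.29 and 49.5 ± 1.97 CPM in mock vehicle and DEM, and its difference was 1.88 ± 0.10 (adjusted p = 2.26e-09). Srxn1 and Txnrd1 were not called in mock cells (adjusted p = 0.387 and 0.0878) and had differences of 2.08 ± 0.12 and 1.50 ± 0.10 (adjusted p = 7.63e-09 and 5.86e-08). Pik3ap1, an adaptor of phosphoinositide 3-kinase, rose 2.05-fold in T-N2G cells (adjusted p = 0.000491), fell 1.84-fold in mock cells (adjusted p = 0.0108) and had a difference of 1.91 ± 0.33 (adjusted p = 0.00201).

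Some members of the same lists rose in both populations. Hmox1 rose in mock cells from 997 ± 241 to 2000 ± 246 CPM (2.04-fold, adjusted p = 6.9e-07), less than the 4.10-fold of T-N2G cells, with a difference of 1.01 ± 0.14 (adjusted p = 0.000196, or 0.348 without the block). Slc7a11 rose 1.59-fold in mock cells (adjusted p = 0.00208), with a difference of 1.46 ± 0.19 (adjusted p = 0.000185). Nqo1 rose 1.46-fold in mock cells (adjusted p = 0.0446, or 0.235 without the block), with a difference of 2.12 ± 0.25 (adjusted p = 4.51e-05). Gss, Slc3a2, Txn2, Slc6a9 and Mt2 had log2 fold changes of 0.48, 0.55, 0.46, 0.97 and 0.81 in T-N2G cells and of 0.51, 0.64, 0.47, 0.87 and 0.71 in mock cells, and the difference was not called for any of them (adjusted p from 0.732 for Slc3a2 to 0.965 for Txn2). For Gss the difference was -0.03 ± 0.08 and for Mt2 0.10 ± 0.14.

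Negative differences were found among stress and matrix genes. Trib3 rose 3.05-fold in mock cells against 1.68-fold in T-N2G cells, a difference of -0.86 ± 0.16 (adjusted p = 0.00555, or 0.123 without the block). Chac1 rose 2.35-fold in mock cells, with a difference of -0.80 ± 0.14 (adjusted p = 0.00201, or 0.182 without the block). Of the 30 Atf4 targets 7 had a negative and 1 a positive difference (0 and 1 without the block), the latter Slc1a4 with 0.77 ± 0.08 (adjusted p = 5.46e-06). Herpud1, of the degradation of misfolded proteins, rose 1.49-fold in mock cells and was not called in T-N2G cells (log2 0.10 ± 0.05, adjusted p = 0.113), a difference of -0.47 ± 0.07 (adjusted p = 0.000826). Spry1 was not called in mock cells (adjusted p = 0.785) and had a difference of -0.69 ± 0.09 (adjusted p = 0.000128). Timp3 and Thbs1 fell in mock cells as well, both 1.52-fold, and had differences of -0.63 ± 0.08 and -0.54 ± 0.12 (adjusted p = 6.16e-05 and 0.0153, neither called without the block). The fall of Timp3 in mock cells was not called without the block either (adjusted p = 0.167). Of 20 collagen genes 5 and of 24 elastic fibre and matricellular genes 6 had a negative difference and none a positive one, and without the block 0 genes of both lists had a called difference.

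**Figure D4:**
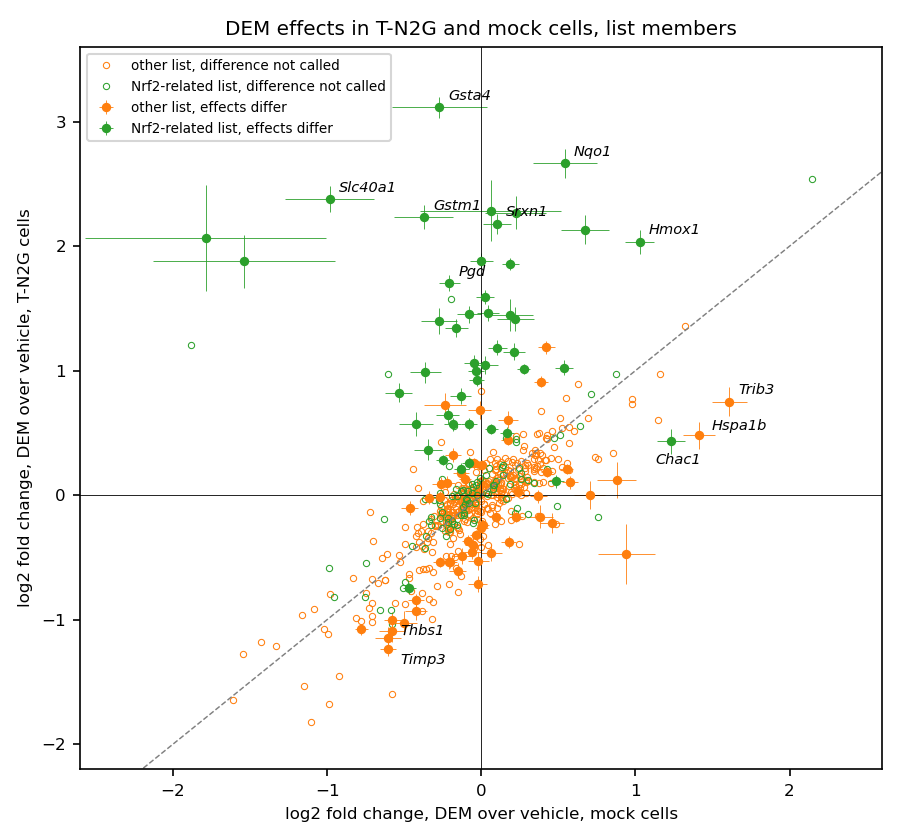
The log2 fold change of DEM over vehicle in T-N2G cells (vertical axis) against that in mock cells (horizontal axis) for list members, with the dashed line where both are equal and bars of 1 standard error. Filled points have a called difference and open points do not, green marks Nrf2-related and orange other lists, and 4 members lie outside the axes; Gsta4 at 3.12 and Nqo1 at 2.67 lie far above the line and Trib3 at 0.75 below it.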

How the data were processed

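The deposited table gives, per the file headers, raw fragments, FPKM and a status for each gene and library. Per the submitters' processing notes the authors used Cuffdiff 2.1.1 and TopHat2 2.0.8b, with mm9 as the build, and bcl2fastq 2.16.0.10. The strand setting of the counting is not given in the sources used here. The raw fragments deposited by the authors are expected counts, whole in 98.3% of values, and were rounded. FPKM deposited by the authors served to compare levels between genes and as an alternative unit. The status was FAIL in 37 values of 17 genes, which were kept. The 2 other value columns of each library were not used.

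Genes passing edgeR's expression filter (minimum count 10, total 15) in 12 libraries of between 18863560 and 23095692 fragments were fitted in edgeR 4.0.16 (R 4.3.3) with trimmed mean of M-values factors of 0.980 to 1.03, the 4 groups and the replicate number. Standard errors are the log2 fold change over the square root of F. Alternatives used limma 3.58.1, DESeq2 1.42.0, no block, other scaling or filters, and libraries left out. The model was tested on simulated data. The replicate number pairs the samples by the data: deviations from group means correlated at 0.361 to 0.631 for the same number (18 pairs of libraries) and at -0.422 to -0.00363 for different numbers (36 pairs). The deviations within a group cancel out. Negative values for different numbers therefore follow from positive ones for the same number and are no separate evidence. The block was the main design. Replicate 3 with its own code series is a candidate batch, each group having 1 library there.

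Named were the construct's genes, members of the Nrf2 lists, up to 6 called members of each other list with the smallest adjusted p, the 12 largest changes in each direction among genes called in both fits with at least 2 CPM and no overlap, and the 8 largest differences in each direction called in both fits. The members and lists were chosen with earlier results of these data known.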

Additional observations from a re-analysis of the deposited data

Results flagged for a closer look

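The effect of DEM in T-N2G cells differed from that in mock cells for 64 genes named in the report, by the test of the difference in edgeR's quasi-likelihood model at an adjusted p under 0.05. Values are the log2 fold change in T-N2G cells minus that in mock cells, and no explanation was tested. Of the 64, 30 were not called without the replicate block, 13 of 45 positive and 17 of 19 negative ones, and only Spry1 and Herpud1 kept a called negative difference.

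The adjusted p without the block was 0.0551 for Cbr3, 0.0647 for Sqstm1, 0.0703 for Blvrb, 0.0783 for Procr, 0.317 for Fech, 0.348 for Hmox1, 0.503 for Keap1, 0.533 for Txn1, 0.780 for Psme4 and 0.9999 for Mgst1, Gabarapl1, Csf1 and Mt1. Of the negative differences it was 0.123 for Trib3 and Hspa1b, 0.182 for Chac1, 0.354 for Sorbs2 and 0.9999 for the other 13 not called.

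Among glutathione genes the difference was 1.88 for Gclm, 1.67 for Gclc, 1.46 for Slc7a11, 0.94 for Gsr and -0.80 for Chac1. For transferases it was 3.39 for Gsta4, 2.61 for Gstm1 and 2.22 for Mgst1. In the thioredoxin system it was 2.08 for Srxn1, 1.67 for Prdx6, 1.50 for Txnrd1, 0.75 for Prdx1, 0.34 for Txn1 and -0.28 for Txnip. For NADPH supply it was 1.91 for Pgd, 1.02 for Me1, 0.93 for G6pdx, 0.86 for Taldo1 and 0.54 for Tkt. Genes of quinone and carbonyl detoxification gave 2.12 for Nqo1, 1.35 for Ptgr1 and 1.00 for Cbr3. Heme and iron genes gave 3.42 for Pir, 3.36 for Slc40a1, 1.56 for Slc48a1, 1.36 for Abcb6, 1.19 for Blvrb, 1.11 for Fth1, 1.01 for Hmox1, 0.95 for Ftl1 and 0.47 for Fech. Efflux pumps, catalase and superoxide dismutase gave 1.42 for Abcc4, 1.08 for Abcc1, 1.03 for Cat and 0.65 for Sod1. The regulators and other Nrf2 targets gave 2.04 for Procr, 1.53 for Esd, 1.26 for Htatip2, 0.74 for Sqstm1, 0.49 for Mt1 and 0.33 for Keap1.

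Outside the Nrf2 lists the positive differences were 1.91 for Pik3ap1, 0.77 for Slc1a4, 0.70 for Gabarapl1, 0.52 for Tfe3, 0.51 for Csf1 and 0.27 for Psme4. Stress genes gave -0.93 for Hspa1b, -0.86 for Trib3, -0.47 for Herpud1 and -0.37 for Vldlr. Growth control and p53 genes gave -0.69 for Spry1, -0.53 for Btg2, -0.51 for Jun, -0.43 for Klf4 and -0.30 for Plk2. Matrix genes gave -0.63 for Timp3, -0.54 for Thbs1, -0.53 for Nov, -0.51 for Adamts1, -0.42 for Fbn1, -0.34 for Col1a1 and -0.26 for Col1a2, and the adaptor gene Sorbs2 gave -0.78.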

How the results depend on the processing

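The replicate number as a block moved the counts most. Without it the genes called higher fell from 2846 to 1254, those called lower from 2769 to 941, the positive differences from mock cells from 227 to 52 and the negative ones from 122 to 2; the pairing is described with the processing. Leaving out 1 library or 1 replicate gave between 2081 and 2400 genes higher, 1981 and 2430 lower, 127 and 225 positive and 56 and 129 negative differences, where the omission of mock libraries was chosen after seeing the data. Without a filter on low counts 186 negative differences were called. With limma on log2(FPKM + 1) 55 negative differences were called, and with a pseudocount of 0.1 there were 118 positive and 39 negative ones. The cause of these moves was not tested. With size factors of DESeq2, with DESeq2 itself and in the 6 T-N2G libraries alone, the counts of genes higher and lower stayed within 1.5 times. Of 140 called named genes, DESeq2 lost the calls of Mafg (adjusted p = 0.402) and Gstz1 (0.0960), and limma that of Mafg (0.273 and 0.346 with pseudocounts of 1 and 0.1). No value named for a gene changed its sign when called. Genes under about 2 CPM rest on few fragments, and the 11849 untested genes were not compared.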
